A study of Mus musculus with 6 samples.

Results

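The comparison described here sets the colon library of pseudo germ-free (pGF) mice after 2 days of dextran sodium sulfate (DSS) against the colon library of pGF mice before DSS. Its members are all barcodes of these 2 libraries that held 200 or more detected genes and drew no more than 10% of their unique molecular identifiers (UMIs) from mitochondrial genes. They number 8768 (1280 at day 0 and 7488 at day 2) of the 31304 barcodes that passed the same limits in the 6 libraries of the series. All mice were wild type. The pGF day 0 mice had been given antibiotics for 4 weeks, and the pGF day 2 mice had antibiotics for 4 weeks and then antibiotics together with DSS for 2 more days, so both libraries carry the antibiotic exposure and its length differs by the same 2 days. The specific pathogen-free (SPF) libraries set beside them come from mice without antibiotics, either control mice at day 0 or mice given DSS for 2 days. The labels give no strain, sex, age, antibiotic, DSS dose or number of animals behind a library. Each group is 1 library, so every difference below is one between libraries, no test of the condition is possible, and every interval (95%) covers counting error only.

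DSS is a polymer given in drinking water that damages the lining of the colon and is widely used to model colitis. Broad-spectrum antibiotics deplete the gut bacteria, whose products shape intestinal IgA plasma cells, lymphocytes and macrophages. The colon mucosa holds lymphocytes within and under the epithelium, IgA-secreting plasma cells, macrophages that are renewed from blood monocytes, and dendritic cells that carry antigen to lymph nodes.

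The colon epithelium was first loosened with EDTA and discarded, the rest was broken up with Liberase TL plus DNase I, and flow sorting kept cells that carried CD45, the marker of blood-derived cells. The pGF day 0 library held 1792 barcodes and 32870737 UMIs with a median of 20744 UMIs per kept cell, and the pGF day 2 library held 9288 barcodes and 52772901 UMIs with a median of 3201. Of their barcodes 28.1% and 19.3% lay over the mitochondrial limit, against 61.1% in the SPF day 2 library. The 2 pGF libraries shared 30 barcode sequences, 18 of them among kept cells. Cells were put into classes by the markers of 17 cell types, which left 2.73% of kept cells at day 0 and 11.6% at day 2 without a class, and 2.73% and 2.02% with markers of more than 1 class. A gated class is a range of a per-cell marker score and not a sharp cell type: 4 and 303 T cells, 1 and 1 plasma cells, 4 and 10 monocytes or macrophages, 1 and 6 dendritic cells, and 6 and 44 epithelial cells lay near the limit of their gate at day 0 and day 2.

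The cell makeup of the 2 libraries differed most, in percentage points, for plasma cells and T cells. T cells made up 16.7% (14.7% to 18.9%) of kept cells at day 0 and 58.9% (57.7% to 60.0%) at day 2, 214 and 4407 cells. Their share was thus 3.52-fold higher at day 2, a log2 ratio of 1.82 (1.62 to 2.02). In the SPF libraries the T cell share was 14.5% at day 0 and 17.6% at day 2, a log2 ratio of 0.28 (0.08 to 0.48). Over immune cells alone the pGF share of T cells was 19.9% and 81.8%, and the SPF share 16.6% and 36.3%. The T cell share of the pGF day 7 library was 60.4%, close to that of day 2.

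Plasma cells, the antibody-secreting end stage of the B lineage, went the other way. They were the most numerous class of the pGF day 0 library at 47.1% (44.3% to 49.9%), and made up 1.15% (0.920% to 1.42%) of the day 2 library, 603 and 86 cells. That is a 41.0-fold lower share, a log2 ratio of −5.36 (−5.70 to −5.03). The SPF libraries moved in the same direction, from 58.1% to 12.8%, a log2 ratio of −2.18 (−2.35 to −2.02). At day 7 in pGF the share was 4.80%. Shares of 1 library sum to a whole, so a low share of plasma cells and a high share of T cells are not independent values, and the number of cells per colon was not measured.

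Monocytes or macrophages made up 11.8% (10.1% to 13.7%) of kept cells at day 0 and 1.60% (1.33% to 1.91%) at day 2, a log2 ratio of −2.88 (−3.24 to −2.52). The same ratio was −0.50 (−0.76 to −0.24) in the SPF libraries. Over immune cells the 2 flora states differed in sign, −2.65 in pGF and 0.35 in SPF, a difference that was not tested. Dendritic cells held 3.91% (2.91% to 5.12%) and 1.15% (0.920% to 1.42%) of the pGF libraries, a log2 ratio of −1.77 (−2.29 to −1.23), whereas their share was higher at day 2 in SPF, 2.25% and 4.77%.

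Classes that a CD45 sort is meant to leave out were present and also differed. Epithelial cells were 8.05% (6.62% to 9.67%) of the day 0 and 14.3% (13.5% to 15.1%) of the day 2 library, a log2 ratio of 0.83 (0.53 to 1.13), which became 1.76 with a mitochondrial limit of 5%. Fibroblasts or smooth muscle cells were fewer at day 2, 29 and 18 cells or 2.27% and 0.240%, while in SPF they made up 0.848% and 14.1%. The UMIs per cell, the share of barcodes over the mitochondrial limit and the share of cells without a class differed between these libraries as given above, and their part in the shares was not tested.

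**Figure D1:**
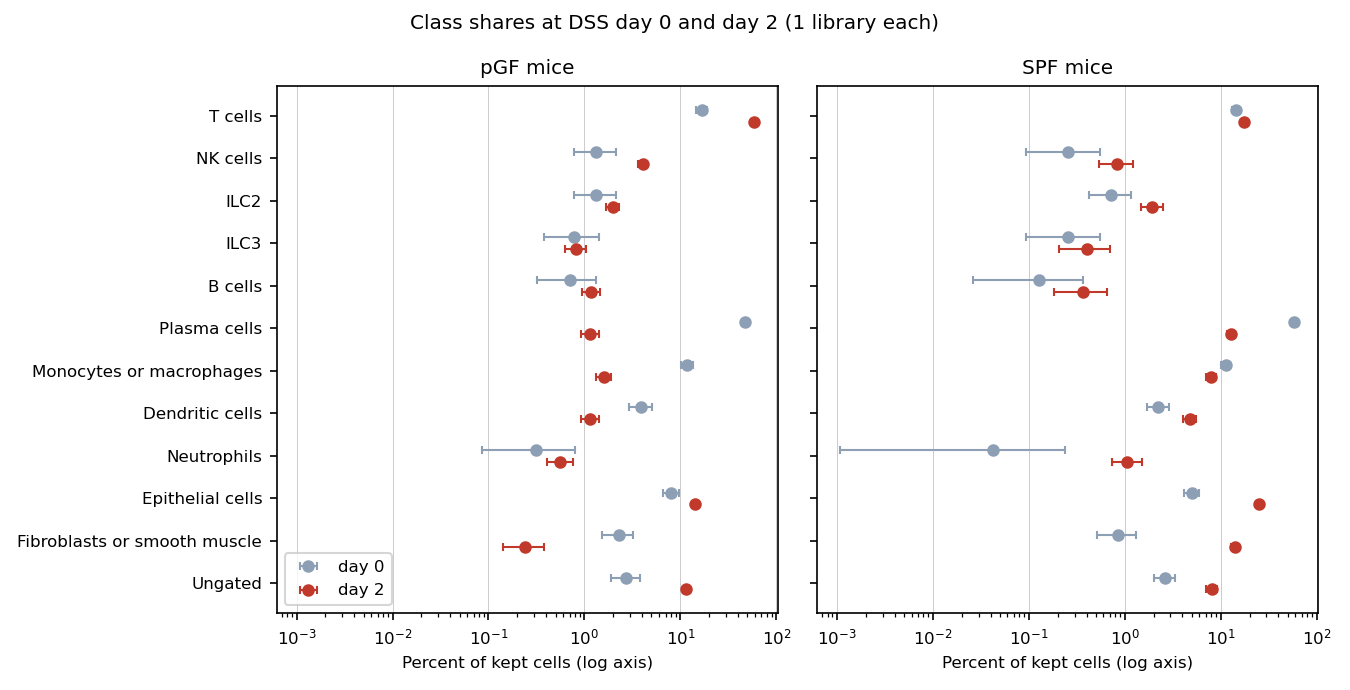
Share of kept cells in each marker-gated class (log axis, percent) at day 0 and day 2 of DSS in pGF (left) and SPF mice (right), with 95% exact binomial intervals; each point is 1 library. In pGF the T cell share goes from 16.7% to 58.9% and the plasma cell share from 47.1% to 1.15%.

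Among the smaller lymphocyte classes, natural killer (NK) cells, innate cells that kill stressed or infected cells, were 1.33% (0.776% to 2.12%) at day 0 and 4.05% (3.61% to 4.52%) at day 2, 17 and 303 cells. T cell markers in this class summed to 1017 CPM at day 0 and 1748 CPM at day 2. No margin was asked between NK and T cells, and 43 of the 303 day 2 cells lay near the limit of their gate. The part of T cells in the NK shares was not tested. Group 2 innate lymphoid cells (ILC2), a source of type 2 cytokines, made up 1.33% (0.776% to 2.12%) and 1.98% (1.67% to 2.32%), and the interval of their log2 ratio, 0.57 (−0.15 to 1.39), included 0. The shares of group 3 innate lymphoid cells (ILC3) were 0.781% and 0.815%. B cells were 9 and 88 cells, with a log2 ratio of 0.74 (−0.25 to 1.92). Neutrophils, which enter inflamed colon from blood, were 4 of 1280 and 42 of 7488 cells, a log2 ratio of 0.84 (−0.62 to 2.78) whose interval held 0. In SPF they were 1 of 2359 and 32 of 2997 cells, a log2 ratio of 4.65 (2.07 to 10.00) that rests on 1 cell at day 0.

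Genes were compared within the 5 classes that had 50 or more cells at both times. UMIs summed over the cells of a class were scaled to the same total in each library (CPM), and a difference is given as log2 (CPM + 10) at day 2 minus day 0, a scale that understates differences of low genes. Genes with at least 10 CPM in either library were compared, and a gene counts as called when it differs by at least 2-fold on this scale. In either direction 1.51% of genes were called in T cells and 1.75% in epithelial cells, against 4.07% in plasma cells, 5.14% in monocytes or macrophages and 7.69% in dendritic cells, classes with fewer cells in at least 1 of the libraries.

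T cells had the lowest share of called genes of the 5 classes. Of 8209 genes compared, 49 (0.597%) were higher and 75 (0.914%) lower at day 2, from 1315904 UMIs of 214 cells and 14952411 UMIs of 4407 cells. The leading genes of the class were T cell genes in both libraries, with 3 of its markers and none of another class among the top 10 by fold over other cells. The genes furthest up were chaperones and regulators of transcription and signalling, and those furthest down held glycolytic enzymes and inhibitory receptors.

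The heat-shock chaperones, which refold proteins after heat and other stress, led the higher side. The inducible Hsp70 gene Hspa1b stood at 369 CPM at day 0 and 971 CPM at day 2, 2.59-fold higher at day 2, a log2 difference of 1.37 (CPM ratio 2.40 to 2.88). Hspa1a, whose sequence is nearly the same so that reads can be split between the pair, stood at 304 CPM at day 0 and 604 CPM at day 2, a log2 difference of 0.97. In SPF T cells both were lower at day 2, with log2 differences of −0.56 and −1.29. The Hsp40 co-chaperone Dnajb4 (27.4 and 84.1 CPM), the Hsp70 partner Hsph1 (149.7 and 311 CPM) and the mitochondrial chaperonin Hspe1 (588 and 1212 CPM) were also past 2-fold. Of the 15 chaperones compared, 4 were called higher and 0 lower, and their median difference was 0.71 against 0.05 over all genes. Below 2-fold lay Hsp90aa1 (779.7 and 1372 CPM), Dnaja1 (761 and 1252 CPM), Hspd1 (243 and 404 CPM) and Dnajb1 (0.63 on the log2 scale), and the constitutive Hspa8 (−0.12) and Hsp90ab1 (0.09) hardly differed. The list's median was −0.25 in the SPF libraries and 0.01 between pGF day 7 and the same day 0 library.

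The higher level was spread over cells. With each cell thinned to 1000 UMIs, the median T cell carried 5 chaperone UMIs at day 0 and 7 at day 2, and the upper quartile was 8.75 and 14. Hspa1a or Hspa1b was detected in 19.6% (14.5% to 25.6%) and 38.1% (36.6% to 39.5%) of thinned T cells, and in 26.6% and 49.5% before thinning. The thinned shares in plasma cells of the same libraries were 5.34% and 11.9%.

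Hspe1 and Hspd1 encode the 2 parts of the mitochondrial chaperonin and are known to be transcribed in opposite directions from a shared stretch of DNA. That stretch is shown because it holds a heat-shock element, the site bound by heat-shock factors, searched as GAANNTTCNNGAA or TTCNNGAANNTTC on both strands of the 300 bases from 250 before to 50 after each RefSeq gene start (GRCm38.p6). The capitals mark 2 overlapping matches.

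Hspe1 (chr1:55088028-55088147, plus strand, 120 bases): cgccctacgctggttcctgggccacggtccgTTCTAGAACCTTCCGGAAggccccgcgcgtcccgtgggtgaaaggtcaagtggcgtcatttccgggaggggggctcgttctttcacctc

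Such a match was found in 198 (0.603%) of all 32851 promoter windows, which belong to 179 of 27025 genes (0.662%). It was found in 4 of the 12 chaperone genes with a promoter in the table, Chordc1, Hspd1, Hspe1 and Hsph1. A match describes the letters and is not evidence of binding.

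Immediate-early genes, which are switched on within minutes of a signal through AP-1 and related factors, leaned the same way in pGF T cells. Only Atf3 was past 2-fold among 20 compared, at 27.4 CPM at day 0 and 67.0 CPM at day 2, and the list's median was 0.46 in pGF and −0.32 in SPF. Jun stood at 432 and 761 CPM and Fos at 602 and 771 CPM at day 0 and day 2. In the list of Nr4a and NF-kappaB feedback genes, which mark recent antigen receptor signalling, Nfkbid (57.8 and 134 CPM) was called among 17. Nr4a1 stood at 362 and 584 CPM and the early activation marker Cd69 at 277 and 399 CPM, both below 2-fold. Other called genes of the higher side were Brd1 (74.5 and 185 CPM), which encodes a reader of acetylated histones, Id3 (35.7 and 92.9 CPM), an inhibitor of E proteins, Arrdc3 (79.8 and 179.8 CPM), Purb (131 and 282 CPM) and Rgs2 (442 and 915 CPM), a brake on G protein signalling. Brd1 was also higher in SPF, by 1.25.

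Glycolytic enzymes lay on the lower side. Gapdh was at 1342 CPM at day 0 and 599 CPM at day 2, 2.22-fold lower and the only one of 18 glycolysis and hypoxia genes past 2-fold, and it had a difference of −0.96 in SPF. Eno1 (378 and 196 CPM), Ldha (427 and 224 CPM), Aldoa (293 and 174 CPM) and Pkm (201 and 130.4 CPM) lay below that limit on the same side. Hif1a (0.36) and Bnip3 (0.54), which answer to low oxygen, lay on the other side. The list's median was −0.36 in pGF and −0.19 in SPF.

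Cell-cycle genes were called higher in SPF T cells and hardly called in pGF. In pGF, 1 of 16 was called lower and none higher, with a median of −0.60, whereas 17 of 19 were called higher in SPF, with a median of 1.45. Over all genes 164 of 8396 were called higher in SPF T cells. Weighting each cell equally put the pGF median at −0.32. Per 1000 thinned UMIs the pGF T cells held about the same on both days, any UMI of the list in 78.0% and 78.0% of cells, a median of 1 in each library and a mean of 1.86 and 1.81, while the SPF means were 1.69 and 2.76. Rrm2, a subunit of ribonucleotide reductase, stood at 23.6 and 5.75 CPM in pGF, Top2a at 44.1 and 19.4 CPM and the proliferation marker Mki67 at 19.8 and 14.6 CPM. Thinned T cells with at least 2 markers of dividing cells were 1.40% (0.290% to 4.04%) at day 0 and 0.372% (0.213% to 0.603%) at day 2, against 0.904% and 5.46% in SPF. The pGF values are no higher than the 2.00% and 3.57% of plasma cells, so no difference is read from them. Plasma cells carried Pclaf, a marker of this set, at 33.7 and 86.2 CPM. Their shares therefore cannot show that the T cell values are background. Of the microtubule regulator Stmn1, 76.0 and 34.5 CPM, 26% of the day 0 UMIs came from 1 cell, and its difference was −0.95 with and −0.58 without that cell. The histone gene Hist1h2ap likewise drew 42.1% from 1 cell, with −0.82 becoming −0.11. The difference between pGF and SPF was not tested.

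Among genes of effector function, Il4 alone of 3 lists (cytotoxic granules, costimulatory and inhibitory receptors, helper cytokines) was called. None of 12 cytotoxic granule genes was called, with Gzma at 4909 and 3462 CPM, Gzmb at 746 and 526 CPM and a list median of −0.23. In SPF the granzymes differed by 0.29 and 0.36. None of 16 costimulatory and inhibitory receptors was called either, although 2 of the 10 genes furthest down were such receptors, Tigit (237 and 124 CPM) and Lag3 (a log2 difference of −0.89). Tigit differed by −1.29 in SPF. The protease gene Capn3 was furthest down, at 128 and 51.7 CPM, and differed by −1.38 in SPF. Of 8 helper cytokines with enough UMIs, Il4 was called lower (34.2 and 2.68 CPM, a log2 difference of −1.80, from 45 UMIs in 1.40% of day 0 T cells), and Ifng was at 67.6 and 60.3 CPM.

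Genes of circulating and naive T cells had mostly positive differences, none of them past 2-fold. S1pr1, the receptor through which T cells leave tissue, stood at 19.8 and 45.0 CPM, its regulator Klf2 at 126 and 243 CPM, and Tcf7, which encodes TCF-1, at 196 and 288 CPM, while the lymph-node homing receptor Ccr7 stood at 57.8 and 42.3 CPM. The median of the 11 naive and homing genes was 0.38 at day 2 and 0.62 at day 7. Thinned cells with at least 2 naive-like markers were 1.87% (0.512% to 4.72%) and 4.76% (4.15% to 5.44%), but 13.6% and 13.7% before thinning. Of the 18 residence and gut homing genes the median was 0.06. Itgae, which encodes the CD103 integrin of intraepithelial lymphocytes, stood at 449.9 and 406 CPM and Cd7 at 3196 and 1808 CPM.

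Among the subsets of T cells defined by receptor and granule genes, 1 had intervals that did not overlap between the libraries after thinning, and 2 before it. Cells with Cd8a and no Cd8b1, the pattern of CD8 alpha-alpha intraepithelial lymphocytes, were 36.9% (30.4% to 43.8%) of thinned T cells at day 0 and 24.3% (23.1% to 25.6%) at day 2, and 48.6% and 39.0% before thinning. Plasma cells, which lack Cd8a, gave 0% and 1.19% after thinning. The SPF share was 38.0% on both days after thinning, but 46.8% (41.4% to 52.2%) and 56.25% (51.9% to 60.5%) before it. Cells with Trdc and a gamma constant gene, which mark gamma-delta T cells, were 12.6% (8.48% to 17.8%) and 10.6% (9.69% to 11.6%) after thinning, where the intervals overlapped, and 35.5% (29.1% to 42.3%) and 27.3% (26.0% to 28.7%) before it, where they did not. Trdc is also among the markers that gate the T cell class. Cells with Cd8a and Cd8b1 (2.34% and 2.32%) and with Gzma or Gzmb (26.2% and 25.6%) had overlapping intervals in both cases. Cells with Cd4 and no Cd8a, and cells with Foxp3, were each under 2% of thinned T cells on either day, too few for a comparison at this depth.

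**Figure D2:**
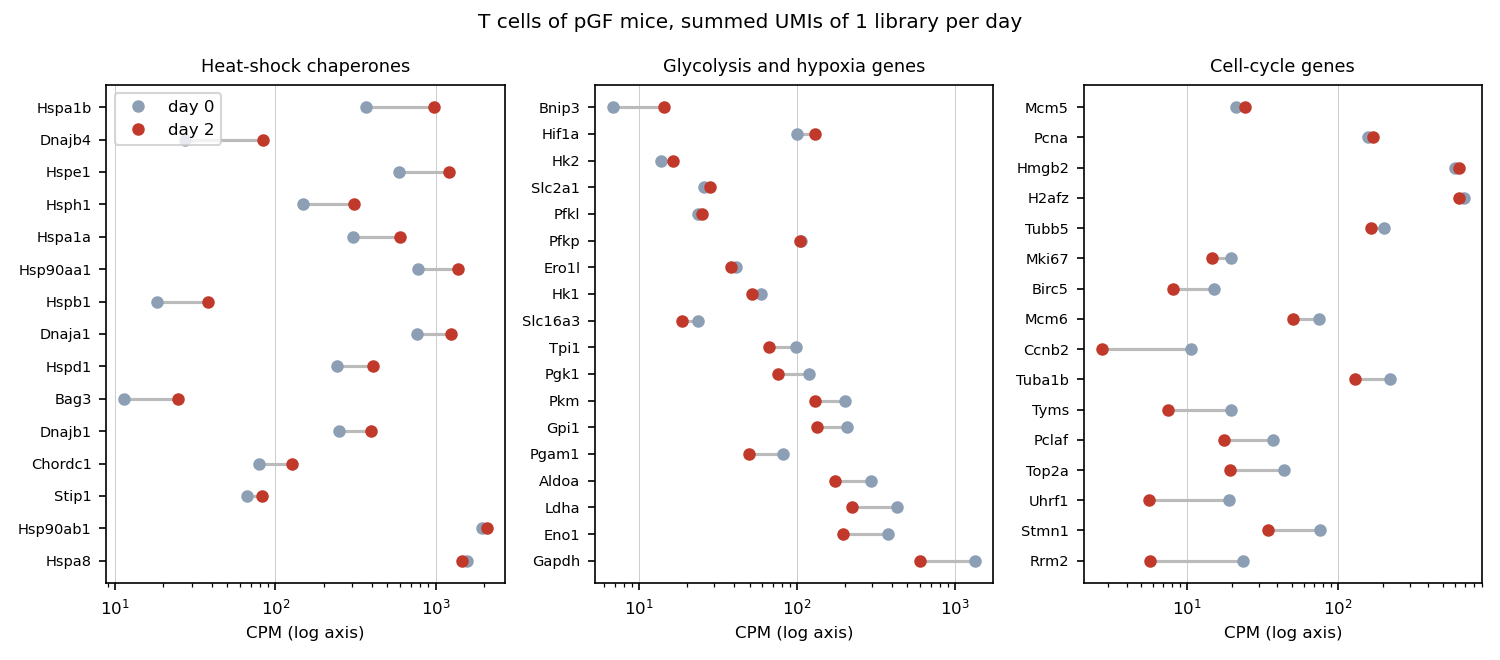
CPM (log axis) of each heat-shock chaperone, glycolysis or hypoxia gene and cell-cycle gene in T cells of the pGF day 0 and day 2 libraries; points are 1 library each. Hspa1b goes from 369 to 971 CPM, Gapdh from 1342 to 599 CPM and Rrm2 from 23.6 to 5.75 CPM.

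RNA of other cells also differed within the T cell class. The 14 epithelial markers summed to 224 CPM at day 0 and 569.9 CPM at day 2, with 2 and 0 of them at 0. Among abundant epithelial RNAs, 11 of 14 compared were called higher, among them Car1 (14.4 and 139 CPM) and Zg16 (1.52 and 46.9 CPM). The plasma cell markers went from 913 to 338 CPM, and those of monocytes or macrophages were 42.6 and 42.9 CPM. The epithelial share of the whole library was higher and the plasma cell share lower at day 2 as well, and the part of this RNA in the T cell values was not tested.

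Plasma cells of the pGF day 0 library were 603 cells with a median of 36669 UMIs, and those of day 2 were 86 cells with a median of 18772. Of 5650 genes compared, 124 (2.19%) were higher and 106 (1.88%) lower at day 2. The median over all genes was 0.23 in this class and −0.09 when the libraries were scaled by trimmed mean of M-values (TMM), under which 67 genes were higher and 149 lower, so differences here are read against that shift. Antigen receptor genes made up a median of 54.2% and 49.3% of UMIs per cell, and leaving them out of the total put the median over all genes at 0.10.

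Almost every gated plasma cell of both libraries was an IgA cell. Igha and Jchain are among the markers that gate the class, so this share is partly set by the gate. Igha, the IgA constant gene, was the leading heavy chain in 599 of 603 cells (99.3%) at day 0 and 85 of 86 (98.8%) at day 2, and its level was 71562 CPM at day 0 and 119308 CPM at day 2. The J chain gene Jchain, needed to join IgA into dimers, stood at 58422 and 53297 CPM. The IgG genes Ighg1 (223 and 1143 CPM) and Ighg2b (173 and 860.2 CPM) and the IgM gene Ighm (48.4 and 109.6 CPM) were past 2-fold higher and Ighg2c (83.2 and 11.1 CPM) lower, but 1 cell at day 2 and 4 cells at day 0 led with an IgG gene, and reads of these related genes may be split by the counting. Lambda light chains exceeded kappa in 21 of 603 cells, 3.48% (2.17% to 5.27%), and in 8 of 86, 9.30% (4.10% to 17.5%). The leading heavy-chain variable genes numbered 70 among 597 day 0 cells, headed by Ighv1-26 in 88 cells, and 39 among 80 day 2 cells, headed by Ighv1-53 in 9 cells. These numbers depend on how many cells were sampled, and clones were not called.

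The secretory program showed no called gene. None of 21 genes of antibody secretion and the unfolded protein response passed 2-fold, with a median of 0.11. The transcription factor Xbp1 stood at 1339 and 1165 CPM and the endoplasmic reticulum chaperone Hspa5 differed by −0.16. None of 20 identity, survival and homing genes was called either. Tnfrsf17, which encodes the survival receptor BCMA, stood at 201 and 187 CPM, Sdc1, which encodes CD138, at 287 and 244 CPM, and Ly6c2 at 2593 and 1606 CPM. Tnfrsf17, Sdc1 and Prdm1 of this list, and Xbp1 and Derl3 of the secretory list, are among the markers that gate the class. Their levels are thus partly set by the gate.

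The 2 inducible Hsp70 genes were furthest up. Hspa1b stood at 36.3 CPM at day 0 and 304 CPM at day 2, a log2 difference of 2.76, and Hspa1a at 34.4 CPM at day 0 and 259 CPM at day 2, a difference of 2.60. Hspa1b was seen in 28 of the 86 day 2 cells, 23.9% of its UMIs came from 1 of them, and without that cell its difference was 2.41. In SPF plasma cells both genes were lower at day 2, with differences of −1.04 and −1.69. Over the list, 3 of 15 chaperones were called, with a median of 0.70, which was 0.41 with TMM scaling.

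Cxcl10, the interferon-inducible ligand of CXCR3, stood at 225 CPM at day 0 and 517 CPM at day 2 in plasma cells (1.16; −1.32 in SPF), but 1 cell held 16.9% of its day 2 UMIs, and it fell below 2-fold without that cell (0.91) and with TMM scaling (0.75). Ly6k, a membrane-anchored protein, stood at 40.6 and 147 CPM. Purb, Kdm2b, Snhg1 and Hnrnph1 were also among the 10 furthest up, at 1.74, 1.38, 1.32 and 1.15. Snhg3 (1.53) and the replication gene Pclaf (1.14) were too, but without the 1 cell that held over 30% of their UMIs they stood at 1.0 and 0.60. On the lower side were the intermediate filament gene Vim (796 and 265 CPM), the tubulin gene Tuba1a (−1.24), Pld3 (−1.12), Fxyd5 (−1.06) and Cd2 (−1.01), followed by Cacna1s (−0.98), Capg, Ech1, Dyrk3 and Cops6. T cell markers in this class summed to 6.34 and 96.1 CPM and epithelial markers to 123 and 304 CPM. The T cell chemokine Ccl5 stood at 19.4 and 116 CPM, and 3 of 6 cytotoxic genes were called higher with a median of 0.77, which was 0.11 over the 577 and 57 cells with no T cell marker UMI. The chaperone median in those cells was 0.40.

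In monocytes or macrophages, the genes called at day 2 included interferon-stimulated genes on the higher side and genes of resident gut macrophages on the lower. The class held 151 cells with a median of 6561 UMIs at day 0 and 120 cells with a median of 4377 at day 2, and 292 of 8233 genes (3.55%) were higher and 131 (1.59%) lower. With TMM scaling these were 169 and 240, and the median over all genes was −0.06 in place of 0.16, so the balance of the 2 directions depends on the scaling. Complement C1q genes, which mark mature gut macrophages, were detected in 94.4% (89.2% to 97.5%) and 95.3% (89.3% to 98.5%) of thinned cells, and in 93.8% and 74.8% in SPF, against 0.935% and 0.813% of pGF T cells. C1qa, C1qb and C1qc are among the markers that gate the class, so these shares are partly set by the gate.

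Type I interferons signal through a receptor on most cells to a large set of antiviral genes. Of 28 compared, 11 were called higher and 0 lower, beside 3.55% called higher among all genes, with a median of 0.80 (0.51 to 1.23 under the alternative settings). In SPF none of 27 was called and the median was 0.11. Isg15, a ubiquitin-like modifier, was read by 278 UMIs at day 0 and 446 UMIs at day 2, or 261 and 678 CPM, a log2 difference of 1.35 against −0.58 in SPF. The RNA-binding Ifit genes stood further apart: Ifit2 at 18.8 and 114 CPM, Ifit3 at 11.3 and 66.9 CPM and Ifit1 at 0.938 and 54.7 CPM, the last from 1 UMI at day 0 and 36 UMIs in 13 of 120 cells at day 2 (CPM ratio 9.82 to 2367). Without the cell with most UMIs of the gene, Ifit1 differed by 2.37 and Ifit2 by 1.88.

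The antiviral enzyme gene Rsad2 stood at 16.9 and 88.2 CPM, the ISG15 protease gene Usp18 at 4.69 and 42.6 CPM, the oligoadenylate synthetase-like Oasl2 at 25.3 and 77.5 CPM, and Rtp4 and Xaf1 differed by 1.21 and 1.20. The signal transducer Stat2 was called (17.8 and 60.8 CPM), while Ifi27l2a (445 and 874 CPM) lay just below 2-fold. Ddx58, which encodes the RNA sensor RIG-I, had the lowest difference of the list, −0.25. Mx1 and Mx2, which belong to the same group, were not analysed here. After thinning to 1000 UMIs, any UMI of the list was found in 66.9% and 83.0% of cells, the median was 1 and 2 UMIs per cell, and the mean 1.80 and 4.08. The SPF means were 2.62 and 2.80.

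Interferon-inducible GTPases, which attack the vacuoles of intracellular microbes, lay on the same side. All 14 compared had positive differences with a median of 0.84, and 3 were called, Ifi47 (14.1 and 47.1 CPM), Tgtp2 (1.19) and Gbp8 (1.16). Reads of Tgtp2 may be split with its near-identical copy Tgtp1, and those of Ifit3 with Ifit3b. The median was 0.66 with TMM scaling, 0.69 after doublet removal and 0.30 in SPF.

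The promoters of 3 of these genes are shown as members of these 2 lists, Ifit1 and Isg15 called higher and Gbp2 not, that hold the interferon-stimulated response element, searched as GAAANNGAAA on both strands of the same 300-base windows. The sequences are from RefSeq, GRCm38.p6, run 5′ to 3′ on the strand of the gene, end before the gene start, and carry matches in capitals.

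Ifit1 (chr19:34640765-34640884, plus strand, 120 bases): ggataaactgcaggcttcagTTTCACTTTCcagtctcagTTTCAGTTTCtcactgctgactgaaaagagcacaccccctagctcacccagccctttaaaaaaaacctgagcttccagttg

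Isg15 (chr4:156200819-156200938, minus strand, 120 bases): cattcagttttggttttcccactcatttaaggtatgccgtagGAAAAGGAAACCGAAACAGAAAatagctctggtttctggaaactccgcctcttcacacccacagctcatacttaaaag

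Gbp2 (chr3:142620543-142620662, plus strand, 120 bases): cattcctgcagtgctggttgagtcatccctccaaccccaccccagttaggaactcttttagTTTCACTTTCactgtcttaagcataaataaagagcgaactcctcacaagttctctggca

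Ifit1 holds 2 separate matches, Isg15 3 that overlap, and Gbp2 1. The element was found in 1131 of 32851 windows (3.44%), which belong to 1079 of 27025 genes (3.99%). It was found in 13 of the 22 interferon-stimulated genes with a promoter in the table (59.1%) and in 9 of 10 GTPase genes (90.0%). These shares describe gene sets long known to answer to interferon and say nothing of what bound there in these cells.

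Genes of resident gut macrophages lay mostly on the lower side in the same cells. Of 20 compared, 5 were called lower and 0 higher, with a median of −0.68 against 0.05 in SPF. Cd163, the scavenger receptor for haemoglobin bound to haptoglobin, stood at 85.4 CPM at day 0 and 18.2 CPM at day 2, a log2 difference of −1.76 against 0.94 in SPF. Selenop, which encodes the selenium carrier, stood at 2137 CPM at day 0 and 797 CPM at day 2 (−1.41) and was detected in 141 of 151 and 81 of 120 cells. Apoe, an apolipoprotein, stood at 22668 and 9539 CPM, and Cd4 and Cd81 differed by −1.05 and −1.01. Below 2-fold lay the mannose receptor gene Mrc1 (619 and 349.7 CPM) and the fractalkine receptor gene Cx3cr1 (−0.40), and with them C1qa (4048 and 3147 CPM) and C1qb (−0.21). The list members C1qa, C1qb, C1qc, Csf1r, Adgre1 and Cx3cr1 are also among the markers that gate the class. All markers of the class summed to 29220.5 CPM at day 0 and 21991.5 CPM at day 2, with 26532 and 17055 CPM in the median cell. Per 1000 thinned UMIs the median cell held 41 UMIs of the list at day 0 and 24 at day 2, and 36 and 18 in SPF. So the SPF medians per cell were also lower at day 2, although the list's median difference there was near 0.

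Iron export was among the largest differences. Slc40a1, which encodes ferroportin, the only known cellular iron exporter, stood at 96.6 CPM at day 0 and 12.2 CPM at day 2 (log2 difference −2.27) and was detected in 40 of 151 and 5 of 120 cells. In SPF it differed by 1.02. Hmox1, the haem-degrading enzyme, stood at 319 and 123 CPM. Of the 10 iron and haem genes, 3 were called lower. The chemokine gene Ccl9 (352 and 73.0 CPM) and the lysophosphatidylserine receptor gene Gpr34 (−1.30) were also among the 10 furthest down, with Midn (−1.29), Galc (−1.29) and Ftl1-ps1 (−1.86), a pseudogene that shares reads with the ferritin gene Ftl1. Retnla (1305 and 426 CPM) came from 5 of 151 and 6 of 120 cells, 51.9% of its UMIs from 1 cell, and its difference, −1.59, turned to 0.76 when each cell was weighted equally.

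Genes of newly arrived monocytes were mixed. Ly6c2, the marker of inflammatory monocytes, stood at 31.9 CPM at day 0 and 123 CPM at day 2 and Plac8 at 72.2 CPM at day 0 and 243 CPM at day 2, both called, Ccr2, the receptor that draws monocytes from blood, at 162 and 266 CPM, and Fn1, which encodes fibronectin, was called lower (151 and 47.1 CPM). In all 2 of 10 monocyte genes were called higher and 1 lower, with 8 of 14 higher in SPF, where 135 of 7909 genes of the class were called higher. Thinned cells with at least 2 monocyte markers were 2.82% (0.773% to 7.06%) and 6.6% (2.70% to 13.1%), overlapping intervals, and 5.84% and 21.7% in SPF. Before thinning the pGF shares were 7.28% and 18.3%.

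Inflammatory cytokines and chemokines had a median of −0.05, with 5 of 23 called higher and 1 lower. Il1b stood at 3627 and 3504 CPM, Tnf at 337 and 552 CPM and Cxcl10 at 555 and 813 CPM, all below 2-fold. Called were Il1a (134 and 310.1 CPM), Ccl12 (277 and 578 CPM), Ccl5 (284 and 982 CPM), Il23a (from 2 UMIs at day 0 and 13 UMIs at day 2) and Il12b (from 3 UMIs at day 0 and 34 UMIs at day 2). Ccl5 was also a leading gene of the T cell class in both libraries. T cell marker RNA in monocytes or macrophages was higher at day 2, as given below, and its part in the Ccl5 value was not tested. Il12b encodes the subunit that IL-12 and IL-23 share, and Il23a the one particular to IL-23. For Il12b, 61.8% of the day 2 UMIs came from 1 cell. Cxcl3, which draws neutrophils, was lower (42.2 and 1.52 CPM).

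Of tissue repair and growth factor genes in this class, 5 of 17 were called lower and 2 higher. The epithelial membrane protein gene Emp1 (150.1 and 21.3 CPM), Igf1 (139.8 and 56.3 CPM), Mmp13 (540.5 and 249 CPM) and Vegfa (−1.09) were lower, and Areg (127 and 193 CPM), which encodes an EGF receptor ligand, lay below 2-fold. MHC class II presentation genes had a median of −0.44 with none of 11 called, Cd74, the class II invariant chain, standing at 40580.5 and 25285 CPM, and in SPF the median was −0.74. Of 21 genes of oxidative phosphorylation 2 were called higher, and the list's median was 0.63 against 0.16 over all genes, and 0.38 with TMM scaling. The called genes were Cox5a (215 and 544 CPM) and Cycs (1.02), which encodes cytochrome c.

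Several of the genes furthest up rested on 1 cell. Il22ra2, which encodes the secreted IL-22-binding protein, had 0 UMIs at day 0 and 115 UMIs at day 2, at least 49.7-fold higher at the lower bound of its interval, but in 4 of 120 cells, with 51.3% of them in 1 cell and none in cells without a T cell marker UMI. Gpnmb (2.40), Spink1 (2.51), Fabp5 (2.79) and Cst7 (2.21) had 83%, 73.7%, 64.6% and 55.3% of their UMIs in 1 cell, and without it stood at 0.27, 1.09, 1.45 and 1.33. Complement factor B, Cfb (10.3 and 73.0 CPM), and Ass1 (1.98), which makes argininosuccinate, completed the 10.

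T cell markers in this class summed to 75.1 CPM at day 0 and 338 CPM at day 2, with 3 and 0 of 9 at 0, and epithelial markers to 90.1 and 328 CPM. Of 7 cytotoxic granule genes compared, 4 were called higher, Gzma from 0 UMIs at day 0 and 90 UMIs at day 2. The median cell held no T cell marker UMI in either library. Over the 142 of 151 and 82 of 120 cells without one, the medians were 1.04 for interferon-stimulated genes, 0.75 for GTPases and −0.51 for resident macrophage genes, so these 3 kept their sign. Among single genes Slc40a1 (−3.15), Cd163 (−2.08) and Ifit1 (2.67) stayed past 2-fold there, Selenop (−0.96) did not, Gpnmb and Cst7 turned to −1.69 and −0.034, and the cytotoxic median went from 1.63 to 0.54. The neutrophil markers S100a8 and S100a9 were at 0 in both libraries. The nuclear RNA Malat1, a sign of cell integrity, made up a median of 0.494% and 1.18% of UMIs per cell, and its part in these values was not tested.

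**Figure D3:**
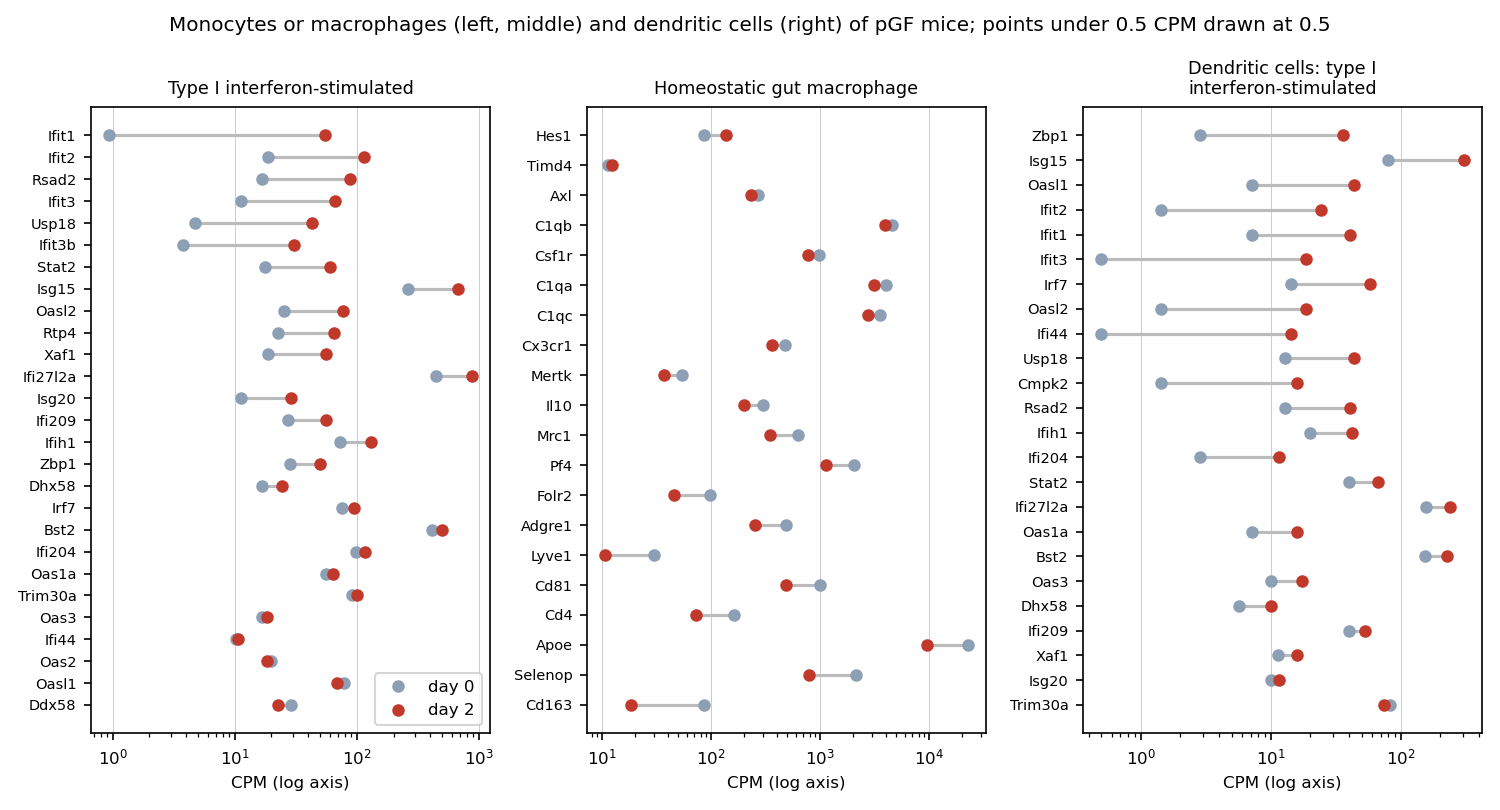
CPM (log axis) of type I interferon-stimulated genes and resident gut macrophage genes in monocytes or macrophages, and of interferon-stimulated genes in dendritic cells, in the pGF day 0 and day 2 libraries; points are 1 library each, and levels under 0.5 CPM are drawn at 0.5. In monocytes or macrophages Isg15 goes from 261 to 678 CPM and Selenop from 2137 to 797 CPM.

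Interferon-stimulated genes were also on the higher side in dendritic cells, the class with the fewest cells at day 0, 50 at day 0 and 86 at day 2 with medians of 14007 and 7002 UMIs. Of 8216 genes compared, 451 (5.49%) were higher and 181 (2.2%) lower, and with TMM scaling 296 and 300. The class was led by MHC class II genes, with 1 of its own markers, Cst3, and none of another class among the top 10. Of 25 interferon-stimulated genes, 12 were called higher and none lower, with a median of 0.79, and in SPF 2 of 17 were called higher, with a median of 0.31. Over all genes 290 of 7749 were called higher in SPF dendritic cells. Isg15 stood at 80.2 CPM at day 0 and 304 CPM at day 2, a difference of 1.80 against −0.93 in SPF. Irf7, the factor that amplifies interferon production, stood at 14.3 and 57.6 CPM, and the nucleic acid sensor gene Zbp1 was read by 2 UMIs at day 0 and 25 UMIs at day 2. Ifit1 had 5 UMIs at day 0 and 28 UMIs at day 2. The GTPases gave 4 called of 11 and a median of 0.81, with Gbp2 at 3 UMIs at day 0 and 17 UMIs at day 2. Per 1000 thinned UMIs, 60% and 70.7% of dendritic cells held any UMI of the interferon list.

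An inducible Hsp70 gene was furthest up in dendritic cells. Hspa1b stood at 64.4 CPM at day 0 and 726 CPM at day 2 (3.31, against −0.13 in SPF) and was seen in 12 of 50 and 36 of 86 cells, and Hspa1a stood at 70.2 CPM at day 0 and 566 CPM at day 2. The Hsp40 gene Dnajb1 stood at 58.7 and 232 CPM, and 5 of 14 chaperones were called with a median of 0.73. Per 1000 thinned UMIs the median dendritic cell held 5 chaperone UMIs in both libraries. The mean was 5.33 and 5.89 and the upper quartile 7 and 6.75, so the list total per cell hardly differed at equal depth. Jun, an AP-1 subunit, stood at 163 and 1029 CPM, the small GTPase gene Rhob at 7.16 and 77.8 CPM and Apol7c at 43.0 and 324 CPM, the last in 5 of 50 and 26 of 86 cells. Rhob and Apol7c differed by −1.28 and −1.16 in SPF. The histone genes Hist1h2ac, Hist4h4 and Hist1h3e and Ccnb1ip1 were also among the 10, at 3.10, 2.50, 2.27 and 2.50 (Hist4h4 at 0.06 with each cell weighted equally), and so was Il22ra2 with 0 UMIs at day 0 and 56 UMIs at day 2, 71.4% of them in 1 cell.

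Among antigen presentation genes of dendritic cells 2 were called lower and 1 higher. Cd74 stood at 31022 CPM at day 0 and 18704 CPM at day 2, and the costimulatory receptor gene Cd40 (122 and 46.1 CPM) and the peptide-loading gene H2-DMb1 (−1.32) were called lower, while Ciita, the master regulator of class II genes, was called higher (73.0 and 202 CPM). The median over 12 class II genes was −0.69, against −0.37 in SPF. Per 1000 UMIs the median cell held 68 UMIs of the list at day 0 and 36 at day 2. Ccr7, the receptor that guides mature dendritic cells to lymph nodes, stood at 358 and 219 CPM. The actin-bundling gene Fscn1 (246 and 53.3 CPM) was detected in 4 of 50 and 4 of 86 cells, with 51.7% of the UMIs in 1 of them. Thinned cells with Fscn1 or Ccl22, which mark mature dendritic cells, were 22.2% (11.2% to 37.1%) and 11.0% (5.14% to 19.8%), those with Xcr1 or Clec9a, of the cross-presenting type, 24.4% (12.9% to 39.5%) and 20.7% (12.6% to 31.1%), and those with Cd209a or Clec10a 28.9% (16.4% to 44.3%) and 24.4% (15.6% to 35.1%). All 3 pairs of intervals overlapped. These genes are among the markers that gate the class, so the shares are partly set by the gate. All markers of the class summed to 26370.4 CPM at day 0 and 20280.5 CPM at day 2, with 23527 and 12823 CPM in the median cell.

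Of 17 inflammatory cytokines and chemokines, 5 were called lower and 1 higher in dendritic cells, with a median of 0.01. Ccl5 (647 and 231 CPM), Ccl2 (64.4 and 7.20 CPM), Il6 (−1.53), Cxcl1 (−1.32) and Il1a (−1.30) were lower, and Tnf (57.3 and 146 CPM) higher. Il1b lay below 2-fold (2142 and 1159 CPM). Nfkbia, the inhibitor that NF-kappaB induces, was lower (1448 and 649.9 CPM). The genes furthest down were Timd4 (120.3 and 11.5 CPM), a receptor for dying cells, Sdc4 (212 and 27.4 CPM), Plat (−2.44), Wnt11 (135 and 21.6 CPM), Prr7 (−1.79), Tuba1a (−1.78), Lat2 (−1.72) and Mt2 (−1.68), besides Fscn1 and Clu, whose 48 UMIs at day 0 all came from 1 cell. T cell markers summed to 4.30 and 56.2 CPM in this class and epithelial markers to 53.0 and 235 CPM. Markers of monocytes or macrophages summed to 1415 and 1478 CPM, with 1303 and 404 in the median cell, and the gate sets no margin between these 2 classes. In the 48 and 65 cells without a T cell marker UMI the medians were 0.81 for the GTPases and 0.65 for chaperones.

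In epithelial cells the genes furthest up included antimicrobial and mucus lectins, and those furthest down bile acid transporters and envelope proteins. The class had 103 cells with a median of 30913 UMIs at day 0 and 1068 cells with a median of 24157 at day 2, and 62 of 8336 genes (0.744%) were higher and 84 (1.01%) lower. TMM scaling gave 53 and 107. The tissue had been stripped of epithelium and sorted for CD45, so these cells are no sample of the whole colon epithelium. This class depended most on the mitochondrial limit: with 5% in place of 10% it held 38 and 735 cells, and 11 of its 20 called named genes were still past 2-fold.

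Mptx1, which encodes mucosal pentraxin, stood at 97.4 CPM at day 0 and 1208 CPM at day 2 (log2 difference 3.50) and was detected in 20 of 103 and 309 of 1068 cells, while in SPF its difference was −1.82. With each cell weighted equally Mptx1 differed by 0.58 and Zg16 by 0.62, both below 2-fold. The antimicrobial lectin genes Reg3b (6.91 and 101 CPM) and Reg3g (9.74 and 54.4 CPM) and Zg16 (496 and 1913 CPM), a mucus lectin that binds bacteria, were called higher, and Zg16 differed by 2.74 in SPF. Reg3b was seen in 5 of 103 and 68 of 1068 cells. At the 5% limit Mptx1 differed by 2.36, Reg3b by 3.42, Reg3g by 1.07 and Zg16 by 0.70, below 2-fold. The hormone gene Pyy and the granule gene Chgb of enteroendocrine cells went from 0 UMIs to 1849 and 1769, but Pyy came from 10 of 1068 cells with 97.7% in 1 cell, without which its difference was 0.22, and Chgb came from 16 cells. Sval1 (2.81), Spink1 (1.36) and Wfdc2 (1.19) were also among the 10.

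The cell division gene Ube2c stood at 43.7 CPM at day 0 and 118 CPM at day 2. Of 20 cell-cycle genes 19 were on the higher side and 3 called, among them Cenpf (15.1 and 47.5 CPM) and Pclaf (34.9 and 88.3 CPM), with a median of 0.62 in pGF and −0.24 in SPF. At the 5% mitochondrial limit the pGF median turned to −0.27 and Ube2c differed by 0.14. Any cell-cycle UMI per 1000 was found in 42% and 53.4% of cells. Of 16 glycolysis and hypoxia genes only the glucose transporter gene Slc2a1 (134 and 55.8 CPM) was called, on the lower side, and the list's median was −0.49 in pGF and −0.55 in SPF. Ldha stood at 1106 and 620.3 CPM and Pkm differed by −0.93.

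Of 18 abundant epithelial genes, 2 were called lower and 3 higher, with a median of −0.49 that was 0.04 at the 5% limit. The carbonic anhydrase gene Car1 stood at 15529.6 CPM at day 0 and 5552 CPM at day 2 (−1.48; −1.44 in SPF) and Krt20, a keratin of mature surface cells, at 599 and 220.2 CPM. The bile acid importer Slc10a2 (121 and 25.8 CPM) and the exporter subunit Slc51a (−1.65) were among the 10 furthest down, with the envelope protein genes Sprr2a2, Sprr1a and Sprr2a1 (−2.00, −1.75 and −1.59), Tubb2a (−2.09), Epha2 (−1.51) and Ftl1-ps1 (−1.62). The antimicrobial ribonuclease gene Ang4 (268 and 21.1 CPM) had 77.2% of its day 0 UMIs in 1 cell and differed by −1.21 without it. At the 5% limit Slc10a2 differed by −1.21, Slc51a by −0.26, and Fxyd4 (−1.64) turned to 0.35. The goblet cell mucin gene Muc2 lay below 2-fold (2051 and 1466 CPM). Cells with Slc26a3 or Car1 were 60% (49.7% to 69.7%) and 37.9% (34.9% to 40.9%) of thinned cells but 68.9% and 69.3% before thinning. The same genes were found in 1.87% and 14% of thinned T cells, a background that differed between the libraries, so no difference in these cells is read from the shares. Cells with Muc2 or Fcgbp were 11% (5.62% to 18.8%) and 11.9% (9.99% to 14%), against 0.467% and 2.53% of T cells. Slc26a3, Car1, Muc2 and Fcgbp are among the markers that gate the class, so these shares are partly set by the gate. T cell markers, all 9 of which were at 0 in day 0 epithelial cells, summed to 57.6 CPM at day 2. Mitochondrial RNA was a median of 5.80% and 3.92% of UMIs per cell and ribosomal protein RNA 10.9% and 18.4%, and the part of these in the epithelial values was not tested.

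**Figure D4:**
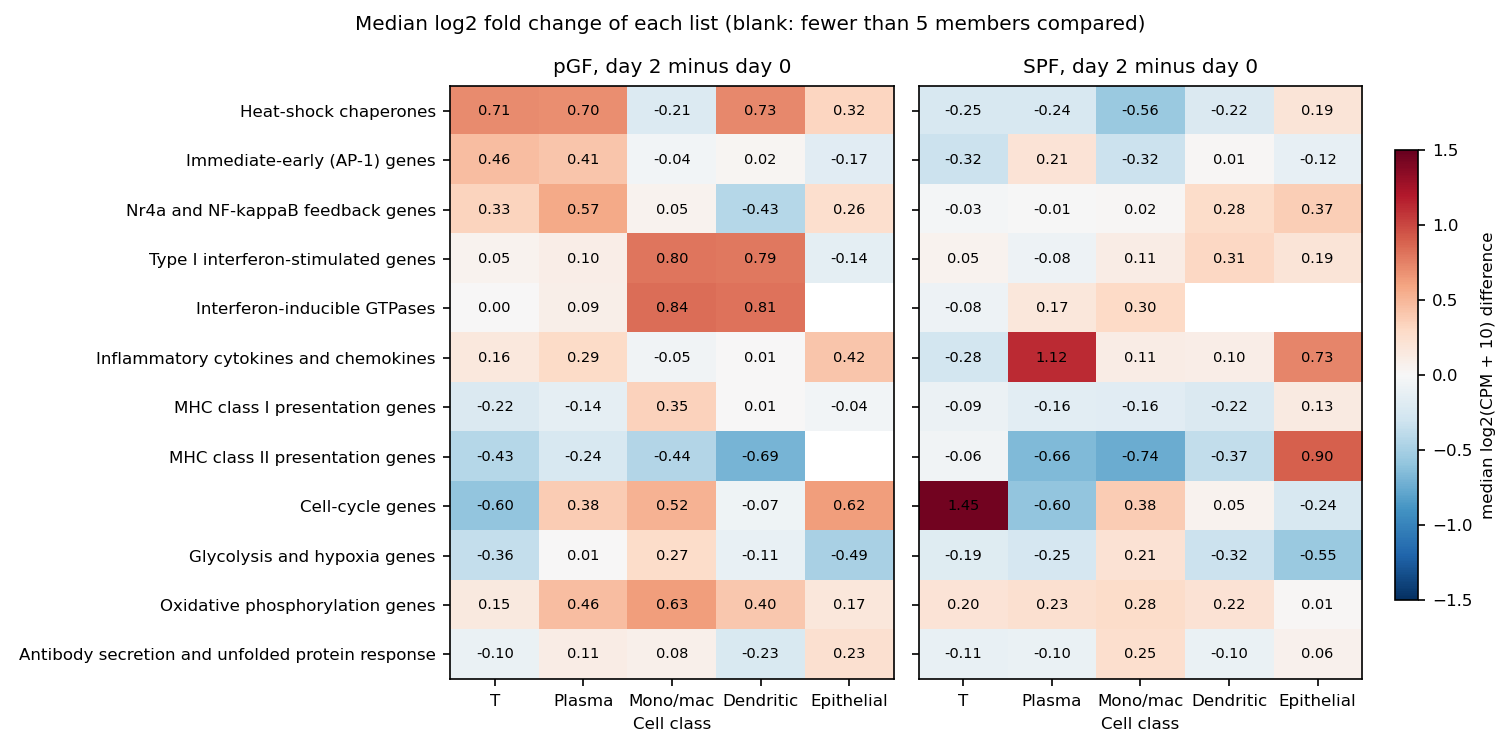
Median log2 (CPM + 10) difference, day 2 minus day 0, of each gene list in the 5 cell classes, in pGF (left) and SPF libraries (right); a blank cell had fewer than 5 members compared. Chaperones in pGF have medians of 0.71 in T cells, 0.70 in plasma cells, 0.73 in dendritic cells and −0.21 in monocytes or macrophages, and interferon-stimulated genes 0.80 in monocytes or macrophages and 0.05 in T cells.

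Set side by side, the lists did not move alike in every class. Chaperones had positive medians in T cells, plasma cells, dendritic cells and, with 0.32, epithelial cells, but in monocytes or macrophages 1 of 15 was called lower, none was called higher and the median was −0.21. At equal depth, however, the median plasma cell and the median dendritic cell held the same number of chaperone UMIs on both days. Interferon-stimulated genes had medians of 0.80 and 0.79 in the 2 myeloid classes, and in T cells none of 18 was called and the median was 0.05. Cell-cycle genes had medians of opposite sign in T cells (−0.60, with no lower share of cells holding a UMI) and epithelial cells (0.62, which turned negative at the 5% mitochondrial limit). These differences between classes were not tested.

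The same contrast in SPF mice shared some genes and not others. In plasma cells 70 genes were lower past 2-fold in both flora states, 66.0% of the 106 called in pGF and 42.4% of the 165 called in SPF, where 2.55% of all genes compared were called lower in SPF. For T cells 34 were lower in both, 45.3% of 75 in pGF and 20.9% of 163 in SPF, beside 1.62% of all genes called lower in SPF. Capn3 was among them, while Gapdh was on the lower side in each but below 2-fold in SPF (−0.96). Higher in both were 12 T cell genes, 24.5% of 49 and 7.32% of 164, beside 1.35% of all genes. In monocytes or macrophages 15 were higher in both, 5.14% of 292 in pGF and 11.1% of 135 in SPF, beside 1.35% of all genes. In dendritic cells 15 were higher in both, 3.33% of 451 and 5.17% of 290, a share of the pGF genes near the 3.12% of all genes called higher in SPF, so nothing is read from it. The SPF contrast shares no library with the pGF contrast, but it has no antibiotics at either time and 61.1% of its day 2 barcodes lay over the mitochondrial limit.

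**Figure D5:**
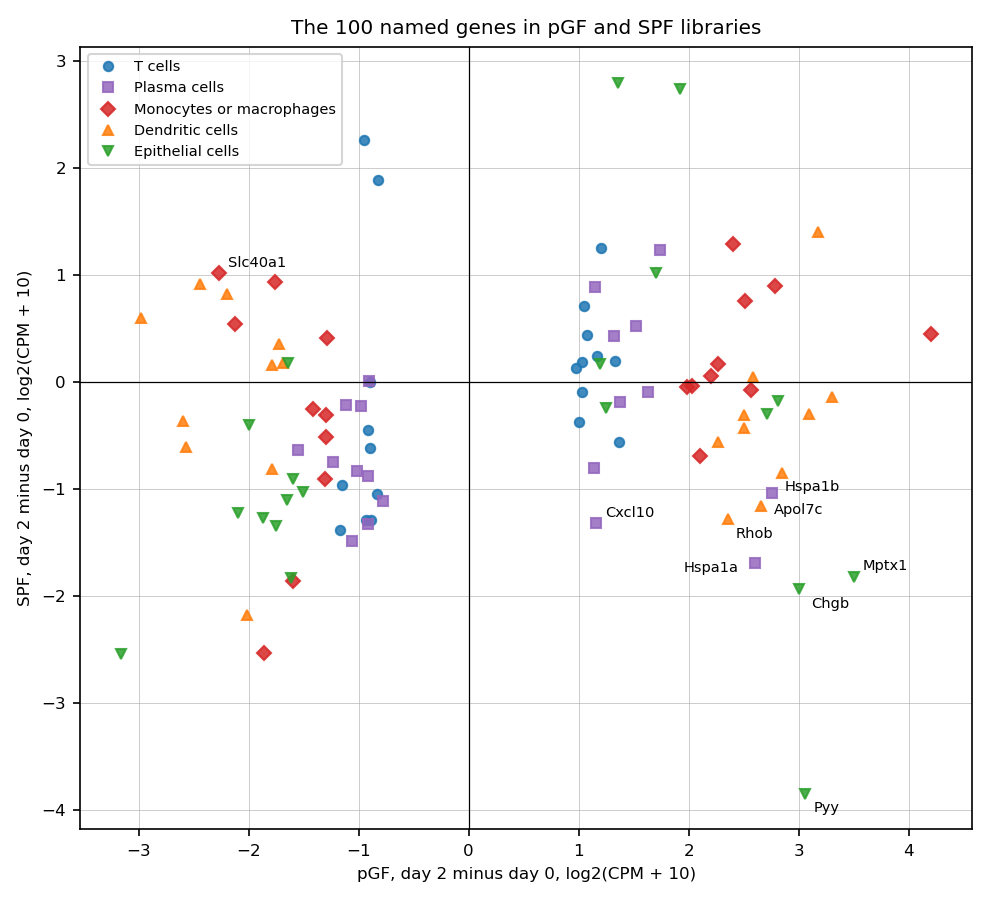
Log2 (CPM + 10) difference, day 2 minus day 0, of the 100 named genes (10 furthest in each direction in each of 5 classes) in pGF libraries (horizontal) against SPF libraries (vertical). Mptx1 in epithelial cells lies at 3.50 and −1.82, Slc40a1 in monocytes or macrophages at −2.27 and 1.02, and Capn3 in T cells at −1.17 and −1.38.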

How the data were processed

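Single-cell 5′ gene expression was measured in 6 libraries of CD45-sorted colon cells, 1 per group. The authors deposited unnormalized UMI counts, made with Cell Ranger 6.1.2 per the file headers, for each gene in each barcode called as a cell, and the submitters' processing notes also name mm10, R 4.1.3 and Seurat 4.1.1. The V(D)J data and the genes Mx1, Mx2 and Trgv7 were not analysed here, 1 member of the interferon list is counted but not reported by itself, and no other column of per-sample values was present.

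From these counts, barcodes with at least 200 genes and at most 10% mitochondrial UMIs were kept. Each cell was scored per class as the mean natural log of (1 + UMIs per 10000) over the class markers, divided by the median score of the 50 highest cells of all libraries. It joined its best class at a relative score of at least 0.3, at least 2 detected markers and 1.5 times the next class. No such margin was asked among T cells, NK cells, ILC2 and ILC3, or between monocytes or macrophages and dendritic cells. These scoring rules were chosen after seeing the data. Doublets were kept in the values reported, and an alternative removed the cells most like simulated doublets at 0.8% per 1000 barcodes. UMIs were summed per class and library, and log2 of (CPM + 10) was compared for genes with at least 10 CPM in either library. Shares of cells have exact Clopper-Pearson intervals, CPM ratios have exact conditional intervals, and both cover counting error only. To compare cells across depths each was thinned to 1000 UMIs (seed 1), which left out 0 and 104 T cells, 4 and 2 plasma cells, 9 and 14 monocytes or macrophages, 5 and 4 dendritic cells and 3 and 35 epithelial cells at day 0 and day 2. With 1 library per group no test was run and no p-value is given.

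The named genes of a class are the 10 furthest in each direction among genes that reached 50 CPM and 20 UMIs on their higher side and 0.2 of the top level over classes of 20 or more cells. Genes of antigen receptors, mitochondria, ribosomal proteins, haemoglobin, the Y chromosome and X inactivation and predicted transcripts (Gm and Rik symbols) stayed out, and members of the 32 gene lists are named as such. The members and lists were chosen with earlier results of these data known. Promoters came from RefSeq (GRCm38.p6). Alternatives changed 1 choice at a time (mitochondrial limit, gene and UMI minimum, gate, doublets, pseudocount, scaling, filter, equal weight per cell). Leaving out the cell with most UMIs of a gene and using only cells with no T cell marker UMI were added after seeing the data. The calculation was tested on simulated data. Python 3.11.15, numpy 2.4.6, scipy 1.17.1, pandas 2.3.3, scikit-learn 1.9.0 and matplotlib 3.10.9 were used.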

Additional observations from a re-analysis of the deposited data

Results flagged for a closer look

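In each of the following the values of pGF and SPF, day 2 against day 0, lay on opposite sides of 0, each from 1 library a side, and the difference between the flora states was not tested. The log2 ratio of the share of dendritic cells was −1.77 in pGF and 1.09 in SPF, that of fibroblasts or smooth muscle cells −3.24 and 4.06, and that of endothelial cells, with 1 cell in each pGF library, −2.55 and 4.18, the pGF interval of −8.84 to 3.75 including 0. In plasma cells the log2 difference of Hspa1b was 2.76 and −1.04, that of Hspa1a 2.60 and −1.69, and that of Cxcl10 1.16 (0.91 without 1 cell) and −1.32. Slc40a1 in monocytes or macrophages was at −2.27 and 1.02. In dendritic cells Apol7c was at 2.66 and −1.16 and Rhob at 2.36 and −1.28. In epithelial cells Mptx1 was at 3.50 (0.58 with each cell weighted equally) and −1.82, and the enteroendocrine genes Pyy and Chgb were at 3.06 (0.22 without 1 cell) and −3.84 and at 3.0 and −1.93.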

How the results depend on the processing

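No paired analysis was possible because each group has 1 library, and for the same reason no library could be left out. Of the 100 named genes 94 kept their sign under all 13 settings; the exceptions were Retnla, Gpnmb, Cst7 and Il22ra2 in monocytes or macrophages, Clu in dendritic cells and Fxyd4 in epithelial cells. Weighting each cell equally put Retnla at 0.76, cells with no T cell marker UMI put Gpnmb at −1.69 and Cst7 at −0.034, and the 5% mitochondrial limit put Fxyd4 at 0.35. Past 2-fold at the 5% limit were 11 of 20 called named genes in epithelial cells, and, in cells with no T cell marker UMI, 13 of 20 in monocytes or macrophages. Of 38 list medians of at least 0.5 in size, 29 kept their sign. Of the medians of at least 1 in size, those that turned were Helper cytokines in plasma cells with doublets removed (−0.54) and in cells with no T cell marker UMI (−0.69), Type 2 and ILC2 genes in monocytes or macrophages with a minimum of 50 CPM (0.57), and Cytotoxic granule genes in epithelial cells in cells with no T cell marker UMI (−0.30) and with that minimum (−0.30). The other 6 turned under 1 setting each: that minimum (T cells, tissue repair, −0.21; monocytes or macrophages, helper cytokines, −0.11; epithelial cells, MHC class II, −0.16), equal weight per cell (T cells, Type 2 and ILC2, 0.21), no T cell marker UMI (dendritic cells, cytotoxic, −0.04) and the 5% limit (epithelial cells, cell cycle, −0.27). The share of T cells with Cd4 and no Cd8a had a log2 ratio of 1.26 thinned and −0.81 not thinned. Before thinning plasma cells gave 27.0% and 11.6%, above the 4.21% and 2.41% of T cells, so nothing is read from the latter ratio. The share of T cells over immune cells had a log2 ratio of 2.04, and that of epithelial cells at the 5% limit 1.76. Counts of called genes depended on the pseudocount. With 1 CPM they were 175 higher and 142 lower in T cells, 438 higher in plasma cells, 970 and 350 in monocytes or macrophages, 1200 and 504 in dendritic cells, and 178 and 152 in epithelial cells. With 50 CPM they were 3 and 17, 43 higher, 24 and 34, 29 and 40, and 9 and 27. TMM scaling gave 67 higher in plasma cells, 169 and 240 in monocytes or macrophages, and 296 and 300 in dendritic cells. Equal weight per cell gave 371 higher in plasma cells, 823 and 260 in monocytes or macrophages, 1165 and 507 in dendritic cells, and 146 higher in epithelial cells, and cells with no T cell marker UMI gave 199 lower in monocytes or macrophages. The cause of these changes was not tested. Depth limits the classes with few cells most: dendritic cells at day 0 rest on 50 cells and 698396 UMIs, so genes near the 10 CPM minimum rest on under 10 UMIs there.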

Other observations

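Several rare classes were seen in a handful of cells. Plasmacytoid dendritic cells numbered 1 and 21 and mast cells 1 and 22 at day 0 and day 2 in pGF. B cells, 0.703% and 1.18% of the day 0 and day 2 libraries, made up 9.87% of the pGF day 7 library. Epithelial cells, 14.3% at day 2, made up 1.08% at day 7. T cells, NK cells, ILC2 and ILC3 together held 24.0% of immune cells at day 0 and 91.3% at day 2 in pGF, and 18.0% and 42.8% in SPF.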
